A study of Mus musculus with 15 samples.

Results

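Bergmann glia are the radial astrocytes of the cerebellar cortex. Their cell bodies lie beside the Purkinje cells and their fibres cross the molecular layer, where they clear glutamate and potassium released at synapses onto Purkinje cells. In the adult they respond to Sonic hedgehog secreted by Purkinje neurons. The 8 genes described here were listed by symbol as genes of these cells, and all 8 of 8 matched 1 identifier each among the 55487 mouse genes of the counts table. They were Gdf10 (ENSMUSG00000021943.7), Slc1a3 (ENSMUSG00000005360.14), Kcnj10 (ENSMUSG00000044708.5), Ptprz1 (ENSMUSG00000068748.7), Fabp7 (ENSMUSG00000019874.11), Acsbg1 (ENSMUSG00000032281.11), Hopx (ENSMUSG00000059325.14) and Sox2 (ENSMUSG00000074637.7). Most are shared with other astrocytes or with progenitor cells, and Gdf10 is the one most restricted to Bergmann glia in the adult cerebellum.

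The 15 bulk RNA libraries came from flash-frozen tissue labelled cerebellum, taken from YG8JR mice, which model Friedreich ataxia, and from wild-type (WT) mice. The mPPL-001 group (n = 5) were YG8JR recipients of Sca1+ hematopoietic stem and progenitor cells from YG8JR marrow, electroporated with Cas9 and the guides sgRNA UP4 and sgRNA DN4. The mock group (n = 4) were YG8JR recipients of cells that had been electroporated with the same guides but no Cas9. Recipients were irradiated with 7 Gy at 2.5 to 3.0 months of age, received the cells and took Sulphamethoxazole/Trimethoprim for 1 month. No transplant was given to the untreated YG8JR group (n = 3) or to the WT group (n = 3). The labels place all samples at 6 months after transplant. Each library also carried a batch label, A or B, whose content the labels do not explain. Batch B held 2 mPPL-001, 2 mock, 1 untreated YG8JR and 2 WT libraries, and batch A held 3, 2, 2 and 1 of them. Library totals ran from 16847839 to 38760039 counts, and the lowest count of any of the 8 genes in any library was 21, for Gdf10.

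The promoters of 4 of the genes are shown, which together cover each outcome of the batch test. Hopx and Ptprz1, also higher in batch B, are not shown. Gdf10 and Slc1a3 were higher in batch B, Kcnj10 was lower, and Fabp7 did not pass the test. Each run reads from 250 bases before to 50 after the RefSeq start on build GRCm38.p6, and capitals mark the RBPJ core TGGGAA or its reverse complement TTCCCA, the binding site of the Notch effector. The windows were chr14:33923337-33923636 (plus strand), chr15:8710758-8711057 (minus strand), chr1:172340960-172341259 (plus strand) and chr10:57784673-57784972 (plus strand).
Gdf10: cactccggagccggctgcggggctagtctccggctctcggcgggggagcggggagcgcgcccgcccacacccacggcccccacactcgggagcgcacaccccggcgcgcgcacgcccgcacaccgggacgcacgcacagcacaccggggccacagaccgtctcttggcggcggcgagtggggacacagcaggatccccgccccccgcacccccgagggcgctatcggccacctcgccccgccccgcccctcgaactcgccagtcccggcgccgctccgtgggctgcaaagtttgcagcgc
Slc1a3: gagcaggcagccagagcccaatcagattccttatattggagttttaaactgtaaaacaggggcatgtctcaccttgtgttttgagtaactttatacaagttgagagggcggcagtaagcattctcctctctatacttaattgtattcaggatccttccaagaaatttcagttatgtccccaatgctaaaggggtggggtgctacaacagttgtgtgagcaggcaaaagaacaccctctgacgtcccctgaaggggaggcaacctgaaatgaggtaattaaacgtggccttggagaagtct
Kcnj10: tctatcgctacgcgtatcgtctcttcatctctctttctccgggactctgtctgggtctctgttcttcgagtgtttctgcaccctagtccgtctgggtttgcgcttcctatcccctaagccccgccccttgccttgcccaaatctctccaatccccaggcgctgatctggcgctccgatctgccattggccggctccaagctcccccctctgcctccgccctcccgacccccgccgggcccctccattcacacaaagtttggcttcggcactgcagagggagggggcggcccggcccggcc
Fabp7: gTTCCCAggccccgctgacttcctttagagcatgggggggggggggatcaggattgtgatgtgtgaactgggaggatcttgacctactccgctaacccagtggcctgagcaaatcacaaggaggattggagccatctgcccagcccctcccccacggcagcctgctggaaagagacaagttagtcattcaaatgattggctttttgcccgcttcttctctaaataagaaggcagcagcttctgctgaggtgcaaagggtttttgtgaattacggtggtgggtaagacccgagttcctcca
All 8 genes had a RefSeq promoter, in 9 windows because Hopx had 2. Both strands were searched for the SOX core AACAAT, the RBPJ core TGGGAA, the GLI site TGGGTGGTC and the paired NFI site. The SOX core occurred in 1 Hopx window, 179 bases before the start, and in 10.6% of all 32544 windows. The RBPJ core occurred in the windows of Fabp7 and Acsbg1, and in 25.4% of all windows. Neither the GLI site (0.246% of all windows) nor the paired NFI site (0.0369%) occurred in the windows of the 8 genes. The Gdf10 window was 77.3% G and C with 42 CpG, the Kcnj10 window 63.7% with 21, the Fabp7 window 54% with 6 and the Slc1a3 window 45.3% with 3, where the median of all windows was 53% with 7. None of the 4 searched motifs was in the windows of Gdf10, Slc1a3 or Kcnj10.

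The libraries differed in the neurons they held, and this moved with batch. Gabra6, which encodes a granule cell GABA receptor subunit, stood between 210 and 494 CPM in batch B and between 0.0592 and 72.8 CPM in batch A. Pcp2, of Purkinje cells, stood between 21.2 and 70.7 CPM in batch B and between 0.195 and 24.7 CPM in batch A. Hoxb3, a hindbrain patterning gene, reached at most 0.151 CPM in batch B, while batch A held 0.0589 to 11.2 CPM. CPM is the usual scaling of a gene's counts to a common library total, here after TMM normalization. All libraries carry the label cerebellum, and every one held some transcripts of both neuron types. The summed CPM of 15 granule neuron genes ran from 4050 to 8009 in batch B and from 614 to 1799 in batch A, and that of 14 Purkinje genes from 5155 to 19932 in batch B and from 579 to 6197 in batch A. Calb1, another gene of the Purkinje list, stood at 492 to 1924 CPM in batch B and at 26.4 to 544 CPM in batch A. A region score was formed by subtracting the mean log2 CPM of brainstem neuron genes from that of granule and Purkinje genes. It ran from 6.61 to 8.3 in batch B and from 0.08 to 2.15 in batch A, apart from mPPL-001 replicate 3 of batch A at 4.59. Between the batches, 14 of 14 Purkinje genes and 14 of 15 granule genes were called higher in batch B, and 18 of 19 brainstem neuron genes were called lower. In bulk RNA, fewer cells of a type and less RNA per cell cannot be told apart.

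The library labelled WT replicate 3 lay near the YG8JR libraries of its batch. Over 4065 genes, its deviation from them was regressed on the difference that the batch B libraries showed between WT and YG8JR. These genes were called for untreated YG8JR against WT in the fit without WT replicate 3. A slope of 1 would match that difference in full, and the slope found was 0.15, while the 7 YG8JR libraries of batch A themselves gave -0.39 to 0.35. The genes were chosen with the same batch B WT libraries that gave the difference. Such a choice can lower the slope of any other WT library, so the slope cannot decide the label. Of the 8 genes, 3 (Kcnj10, Acsbg1 and Sox2) were lower in it than in every YG8JR library of batch A, and 4 were lower than in every untreated YG8JR library. WT replicate 2 was the shallowest library. It was the lowest of the 7 batch B libraries for 8 of the 8 genes and the lowest of all 15 for 4. It also had the smallest share of mitochondrial counts, 1.54%, beside 1.94% in WT replicate 1 and 2.88% to 5.59% in the other 13 libraries. The part of these features in the differences from WT was not tested, and differences from WT are also given without 1 or the other of these libraries.

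The batches were compared first, because batch runs through every group. Of the 8, 4 were higher in batch B, 1 was lower and 3 did not pass edgeR's quasi-likelihood test at an adjusted p of 0.05. Of all 24989 genes tested, 16.5% were called higher in batch B and 15.5% lower. The 4 of 8 called higher stand against that wide background, and the 1 of 8 called lower lies near the share of all genes called lower. The median log2 fold change of the 8 was 0.54 where that of all genes was 0.02.

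Gdf10, a secreted ligand of the BMP family, had the widest range. In batch B it stood at 326 and 240 CPM in mPPL-001, 277 and 264 CPM in mock, 251 CPM in untreated YG8JR and 164 and 72.1 CPM in WT. In batch A it stood at 0.858, 83.0 and 3.45 CPM in mPPL-001, 2.37 and 11.3 CPM in mock, 10.5 and 3.73 CPM in untreated YG8JR and 7.62 CPM in the library labelled WT replicate 3. Every batch B library of the YG8JR genotype lay above every batch A library, and the one overlap was between WT replicate 2 of batch B and mPPL-001 replicate 3 of batch A. The batch B mean was 228 ± 84.1 CPM (SD, n = 7) and the batch A mean 15.4 ± 27.6 CPM (SD, n = 8). The fitted log2 fold change was 4.36 (SE 0.84, adjusted p = 0.00178). Without mPPL-001 replicate 3, the batch A library with the highest region score, it was 5.41.

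Slc1a3 encodes GLAST, the main glutamate transporter of Bergmann glia. It stood at 1593 and 1192 CPM in mPPL-001, 1557 and 1649 CPM in mock, 1398 CPM in untreated YG8JR and 1233 and 737 CPM in WT of batch B. In batch A it stood at 159, 653 and 271 CPM in mPPL-001, 237 and 262 CPM in mock, 248 and 255 CPM in untreated YG8JR and 267 CPM in WT. The batches did not overlap, which was the case in this direction for 6.36% of all genes tested. Apart from mPPL-001 replicate 3 (653 CPM) and mPPL-001 replicate 1 (159 CPM), the batch A libraries lay between 237 and 271 CPM. The log2 fold change was 2.24 (SE 0.26, adjusted p = 2.65e-05). Slc1a3 overlaps the gene Gm37310 on the same strand, so reads of that pair may be hard to assign.

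Hopx, a small homeodomain protein that binds no DNA itself and marks radial glia, was the third gene higher in batch B. Its level was 33.7 and 29.7 CPM in mPPL-001, 35.7 and 38.1 CPM in mock, 39.4 CPM in untreated YG8JR and 29.8 and 19.7 CPM in WT of batch B. Its level in batch A was 9.96, 11.8 and 3.99 CPM in mPPL-001, 9.39 and 15.03 CPM in mock, 13.9 and 21.2 CPM in untreated YG8JR and 10.1 CPM in WT. Untreated YG8JR replicate 3 of batch A was just above WT replicate 2 of batch B, and no other library crossed. Its log2 fold change was 1.56 (SE 0.21, adjusted p = 8.94e-05). In mPPL-001 replicate 3, which had the most Gdf10 and Slc1a3 of batch A, Hopx (11.8 CPM) lay inside the range of the other batch A libraries. Hopx overlaps the antisense gene Hopxos, and the counting of strand is not given in the sources used here.

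Ptprz1, a receptor tyrosine phosphatase of glia and their precursors, was the fourth. It ranged from 324 to 925 CPM with a median of 831 CPM in batch B, and from 277 to 633 CPM with a median of 411 CPM in batch A. The 5 YG8JR libraries of batch B, at 749 CPM or more, were above all of batch A, while both WT libraries of batch B were lower than that, at 631 and 324 CPM. The log2 fold change was 0.87 (SE 0.19, adjusted p = 0.00233).

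Kcnj10 encodes Kir4.1, the inward rectifier through which astrocytes take up potassium. It was the 1 gene lower in batch B. Its level was 438 and 523 CPM in mPPL-001, 445 and 461 CPM in mock, 469 CPM in untreated YG8JR and 246 and 108 CPM in WT of batch B. Its level in batch A was 521, 489 and 552 CPM in mPPL-001, 607 and 821 CPM in mock, 957 and 803 CPM in untreated YG8JR and 458 CPM in WT. The batches overlapped between 458 and 523 CPM. The log2 fold change was -0.66 (SE 0.19, adjusted p = 0.0162), and it was no longer called without WT replicate 3 (-0.45) or without untreated YG8JR replicate 1 (-0.58), or with the replicate number as a block (-0.69, adjusted p = 0.114). Kcnj16, which encodes its partner channel subunit Kir5.1, was also called lower in batch B (log2 fold change -1.18, adjusted p = 0.000495).

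The remaining 3 genes overlapped between the batches and did not pass the test. Fabp7, the brain fatty acid binding protein of radial glia, ranged from 6.6 to 16.8 CPM in batch B (median 11.3) and from 10.3 to 29.9 CPM in batch A (median 15.1). Its difference was small (log2 fold change -0.43, SE 0.18, adjusted p = 0.0889), though DESeq2 called it lower in batch B (-0.46, adjusted p = 0.0451), as did edgeR with the stricter filter (adjusted p = 0.049) or without mPPL-001 replicate 1 (adjusted p = 0.0496). Acsbg1, an acyl-CoA synthetase that activates long-chain fatty acids, ranged from 88.4 to 291 CPM in batch B (median 267) and from 169 to 291 CPM in batch A (median 228), and it did not pass either (log2 fold change 0.20, SE 0.17, adjusted p = 0.392), but was called higher in batch B among the YG8JR libraries alone (0.32, adjusted p = 0.0263). Sox2, a transcription factor of neural progenitors that astrocytes retain, ranged from 15.7 to 31.4 CPM in batch B (median 23.2) and from 18.1 to 34.4 CPM in batch A (median 25.5). Its log2 fold change was -0.11 (SE 0.12, adjusted p = 0.538), with a 95% interval of -0.38 to 0.15. Sox2 lies inside the longer transcript Sox2ot on the same strand, so reads of the pair may be hard to assign.

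**Figure D1:**
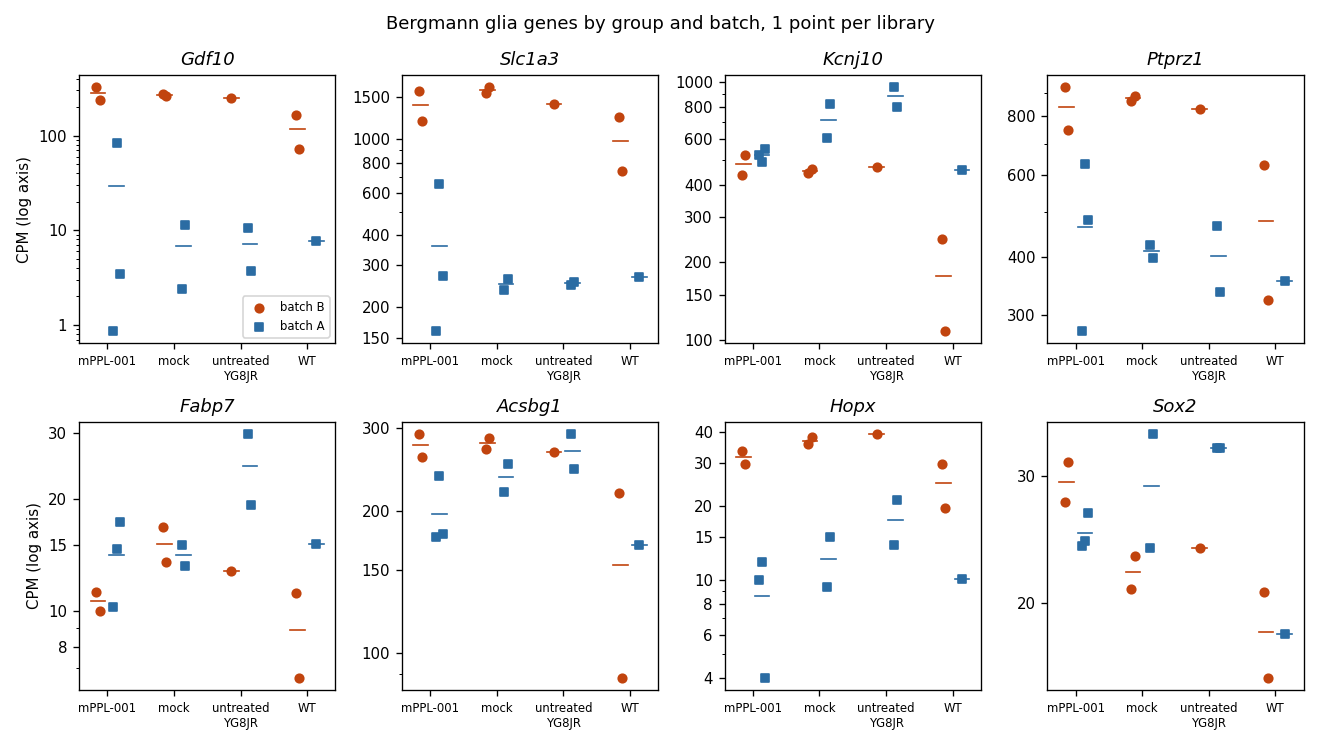
CPM of each of the 8 genes on a log axis, by group, with 1 point per library (circles: batch B; squares: batch A; short lines: means of a group within a batch). Slc1a3 batches do not overlap, Gdf10 in mPPL-001 replicate 3 (83.0 CPM) lies above the other batch A libraries, and Kcnj10 is lowest in the batch B WT libraries (246 and 108 CPM).

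**Figure D2:**
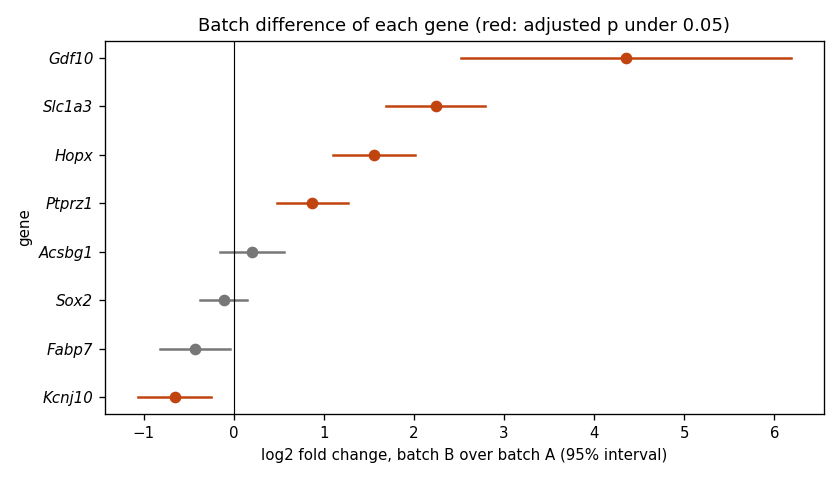
Log2 fold change of batch B over batch A for each gene with its 95% interval, from the model with group and batch on all 15 libraries. Gdf10 (4.36), Slc1a3 (2.24), Hopx (1.56), Ptprz1 (0.87) and Kcnj10 (-0.66) are drawn in red as called, and the other 3 are grey.

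The levels were set side by side per kilobase of exon (CPM per kb), since a longer gene collects more reads. In batch B the medians ran in the order Slc1a3 (164 CPM per kb), Kcnj10 (82.2), Acsbg1 (74.1), Ptprz1 (58.3), Gdf10 (48.2), Hopx (22.2), Sox2 (11.3) and Fabp7 (9.01). The ranges of neighbours in this order overlapped. In batch A, Kcnj10 came first with a median of 107 CPM per kb, ahead of Acsbg1 (63.3), Slc1a3 (30.3) and Ptprz1 (28.9). Sox2 (12.4), Fabp7 (12), Hopx (7.24) and Gdf10 (1.09) followed. So the transporter gene led in the libraries with many granule and Purkinje transcripts and the potassium channel gene led in the others, while Gdf10 held the lowest place only in batch A. The exon lengths came from an annotation of the earlier build, which limits the comparison between genes.

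**Figure D3:**
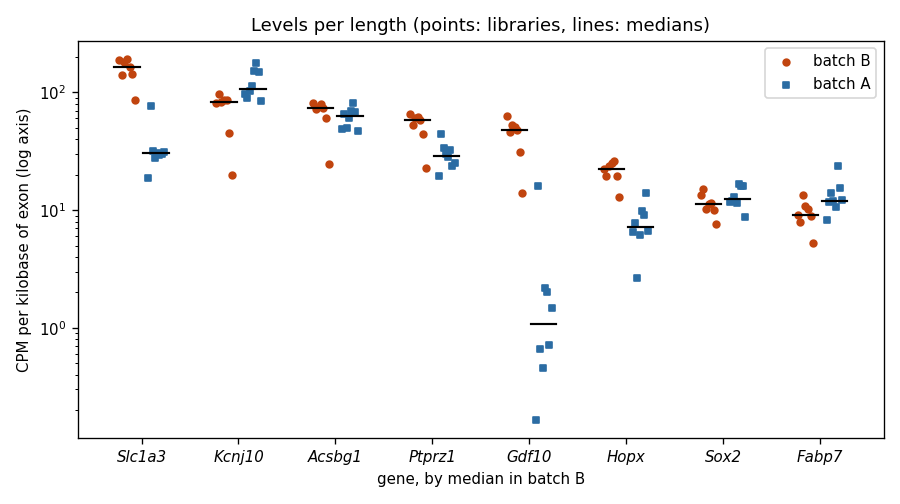
CPM per kilobase of exon on a log axis for the 8 genes, ordered by their median in batch B (circles: batch B; squares: batch A; lines: medians). Slc1a3 has the highest median in batch B (164) and Kcnj10 in batch A (107), and Gdf10 has the lowest in batch A (1.09).

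Other genes of these cells and their pathways were read beside the 8. Of 20 further Bergmann glia genes, 11 were called higher in batch B and 3 lower, with a median log2 fold change of 0.67. Of all genes tested, 16.5% were called higher and 15.5% lower, so the 3 lower calls lie near the background. On the log2 scale, Mybpc1 was higher by 4.05 (adjusted p = 1.42e-05), A2m by 2.10 (0.000111) and Dao, which encodes D-amino acid oxidase, by 2.03 (5.38e-05). The AMPA receptor genes Gria4 (1.08) and Gria1 (1.28), whose subunits Bergmann glia use to sense glutamate, were also higher, as were Vim (1.54) and Sox9 (0.59). The 3 lower genes were Kcnj16, Slc6a11 (-1.87), a GABA transporter gene, and Fgfr3 (-0.44).

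Of 8 genes of the Sonic hedgehog response, 5 were called higher in batch B and 1 lower. Gli1, the transcription factor that reports pathway activity, was higher by 1.73 on the log2 scale (adjusted p = 0.000146), the receptor gene Ptch1 by 0.58 (0.000265) and the coreceptor gene Boc by 1.62 (3.77e-05). Hhip, which encodes a hedgehog-binding inhibitor, was lower (-0.79, adjusted p = 0.00229). Of 13 Notch genes, 2 were called higher and 6 lower. Dner, a Notch ligand gene of Purkinje cells, was higher (1.85, adjusted p = 0.000195), and the Notch target gene Hes5 was lower (-1.38, adjusted p = 0.00787). Hes5 was barely detected in either batch, at 0.0503 to 0.598 CPM in batch B and 0.666 to 1.24 CPM in batch A. Of 13 genes of glutamate and potassium handling or sensing, 6 were called higher and 2 lower. Among them were the water channel gene Aqp4 (0.80, higher) and Slc1a2 (-0.60, lower), which encodes GLT-1, the other astrocyte glutamate transporter. Of 18 pan-astrocyte markers, 7 were called higher and 3 lower, with a median of 0.18. All these counts stand beside 16.5% of all genes called higher and 15.5% called lower. The lower calls among the 8 Sonic hedgehog genes, the 13 handling or sensing genes and the 18 pan-astrocyte markers lie near the share called lower. Likewise, the higher calls among the 13 Notch genes, Dner included, lie near the share called higher.

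When the region score was added to the model, 0 of the 8 genes were called between batches, and 0 of all genes. The score and the batch label ran nearly together, so the batch term then had little left to estimate and its errors grew. The log2 fold change of Gdf10 became -1.03 (SE 1.38), that of Slc1a3 0.20 (SE 0.55), and that of Hopx 1.56 (SE 0.70). Batch and neuronal content therefore cannot be told apart for most libraries. The library mPPL-001 replicate 3, of batch A with a score of 4.59, had 83.0 CPM of Gdf10 and 653 CPM of Slc1a3, each between the rest of batch A and the YG8JR libraries of batch B. Its Kcnj10 (489 CPM) and Sox2 (24.4 CPM) lay within the range of both batches.

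**Figure D4:**
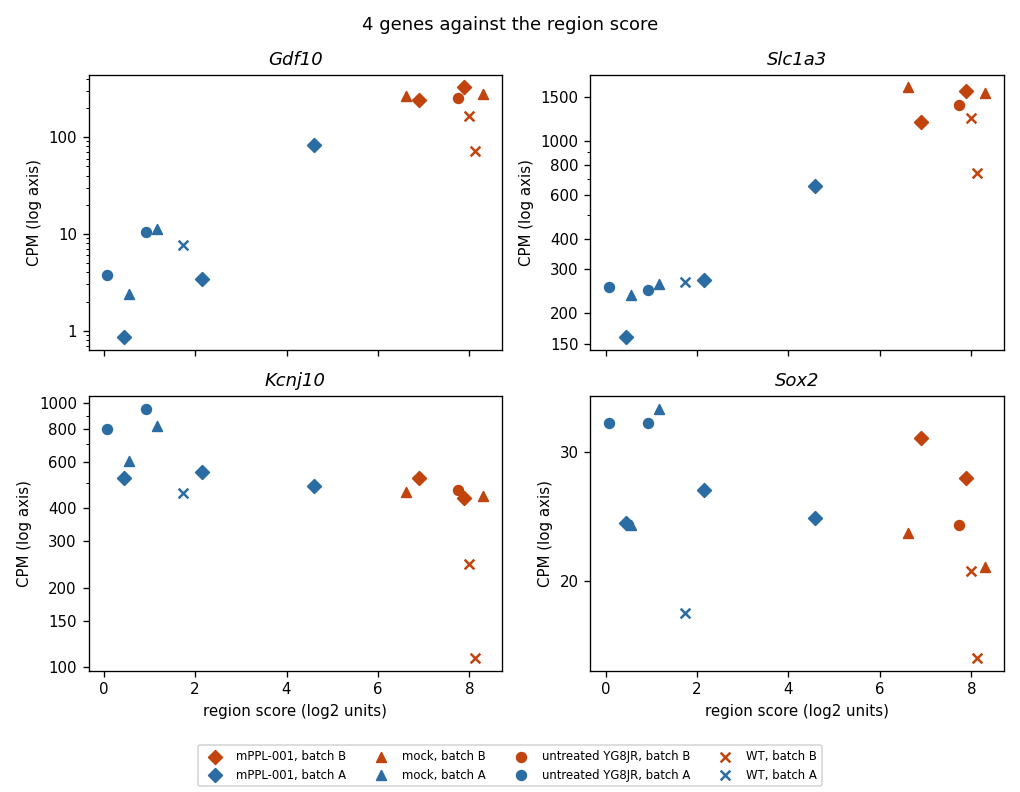
CPM of Gdf10, Slc1a3, Kcnj10 and Sox2 on a log axis against the region score in log2 units, with 1 point per library (colour: batch; shape: group). Batch B lies at scores of 6.61 or more and batch A at 2.15 or less, except mPPL-001 replicate 3 at 4.59, whose Gdf10 (83.0 CPM) and Slc1a3 (653 CPM) lie between the bulk of both batches.

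Untreated YG8JR and WT were compared to ask how the genes differ in the model without a transplant. None of the 8 genes was called, where 0.172% of the 24989 genes were, and 5 of the 8 had an unadjusted p under 0.05, beside 26.4% of all genes. All 8 log2 fold changes were positive, from 0.23 for Slc1a3 to 1.296 for Kcnj10, with a median of 0.72, where the median of all genes was 0. Astrocyte genes outside the 8 gave similar values: 18 of 18 pan-astrocyte markers were positive with a median of 0.88, and 0 were called. Positive values also filled the lists of oligodendrocytes (12 of 12, median 0.70), oligodendrocyte precursors (12 of 12, 0.69) and microglia (14 of 14, 1.31). The same held for endothelium (10 of 10, 0.89), meningeal fibroblasts (10 of 10, 1.06) and Purkinje cells (14 of 14, 0.57), and for 16 of 19 brainstem neuron genes (1.44). By contrast, 14 of 15 granule neuron genes had negative values (median -0.90). Choroid plexus (6 of 10 positive, 0.05) and ependymal genes (4 of 9, -0.09) were mixed. The summed CPM of the pan-astrocyte list ran from 13397 to 16674 in untreated YG8JR and from 5053 to 11000 in WT. The part of cell makeup in the values of the 8 genes was not tested.

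Kcnj10 had the largest difference among the 8. Untreated YG8JR libraries held 469, 957 and 803 CPM, and WT libraries held 246, 108 and 458 CPM. The groups did not overlap, though the lowest untreated YG8JR library (469 CPM, batch B) and the highest WT library (458 CPM, batch A) lay close together. In the model the log2 fold change was 1.296 (SE 0.30, adjusted p = 0.093). Acsbg1 stood at 267, 291 and 245 CPM in untreated YG8JR and at 218, 88.4 and 169 CPM in WT (log2 fold change 0.82, SE 0.26, adjusted p = 0.125). Sox2 stood at 23.8, 32.8 and 32.8 CPM in untreated YG8JR and at 20.7, 15.7 and 18.1 CPM in WT (log2 fold change 0.67, SE 0.20, adjusted p = 0.116). For these 3 genes every untreated YG8JR library was above every WT library, as was so for 9.62% of all genes tested.

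The other 5 genes overlapped between untreated YG8JR and WT. Fabp7 had 12.8, 29.9 and 19.2 CPM in untreated YG8JR and 11.2, 6.6 and 15.1 CPM in WT (log2 fold change 0.76, adjusted p = 0.139). The values for Hopx were 0.85 (adjusted p = 0.148) and for Ptprz1 0.52 (adjusted p = 0.254). Gdf10, at 0.49 (adjusted p = 0.792), had a 95% interval from -2.04 to 3.02, and Slc1a3, at 0.23 (adjusted p = 0.71), one from -0.61 to 1.06. The 2 genes that differed most between batches thus had the least definite difference between the genotypes.

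Within batch B, where the 1 untreated YG8JR library met 2 WT libraries, the log2 fold change of Kcnj10 was 1.41, of Gdf10 1.09, of Acsbg1 0.80, of Ptprz1 0.80, of Hopx 0.68, of Fabp7 0.53, of Slc1a3 0.51 and of Sox2 0.40. Within batch A, where 2 untreated libraries met the library labelled WT replicate 3, Kcnj10 stood at 0.90, Sox2 at 0.81, Hopx at 0.75, Fabp7 at 0.65, Acsbg1 at 0.62 and Ptprz1 at 0.13, while Gdf10 (-0.15) and Slc1a3 (-0.13) were negative. The difference between batches was tested as an interaction, and 0 genes were called for it in edgeR.

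The call for Kcnj10 turned on the setting. Without WT replicate 3 its log2 fold change was 1.67 (SE 0.34, adjusted p = 0.0115), in a fit that called 15.8% of all genes. DESeq2 called Kcnj10 (1.28, adjusted p = 0.00429), Acsbg1 (0.80, adjusted p = 0.0452) and Sox2 (0.65, adjusted p = 0.0388), where it called 8.86% of all genes. Limma's voom with sample weights called Kcnj10 (1.16, adjusted p = 0.0101), where it called 5.03%. Without WT replicate 2, the shallow library, the log2 fold change was 1.00 for Kcnj10, 0.69 for Hopx, 0.60 for Sox2, 0.57 for Fabp7, 0.53 for Acsbg1, 0.27 for Ptprz1, 0.20 for Gdf10 and 0.02 for Slc1a3, and none of the 8 was called.

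The pathway genes around the 8 were read against the 0.172% called among all genes, so that a count of 0 in a short list is no result about it. Of the 20 further Bergmann glia genes 0 were called and 17 were positive (median 0.60), with Sox9 at 0.98 (adjusted p = 0.0889), Hepacam at 0.92 (0.113) and Vim at 1.08 (0.116). Of 8 Sonic hedgehog genes 0 were called and 6 were positive, with Hhip at 1.17 (adjusted p = 0.0889). Of 13 genes of glutamate and potassium handling or sensing 0 were called and 13 were positive, with the cystine transporter gene Slc7a11 at 0.99 (adjusted p = 0.057). Among 16 reactive astrocyte genes 1 was called higher, the complement gene C4b (log2 fold change 2.38, adjusted p = 0.0442), and Gfap stood at 2.01 (adjusted p = 0.0819).

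The transplanted groups were set against WT in the same model, and these comparisons share the WT libraries with the one above. In mPPL-001 against WT, 0 of the 8 genes and 0.208% of all genes were called. Kcnj10 had 505 ± 43.4 CPM in mPPL-001 (SD, n = 5) and 271 ± 176 CPM in WT (SD, n = 3). The log2 fold change of Kcnj10 was 0.86 (adjusted p = 0.208) and that of Sox2 0.54 (adjusted p = 0.214). The others stood at 1.86 for Gdf10, 0.66 for Ptprz1, 0.56 for Acsbg1, 0.56 for Slc1a3, 0.12 for Fabp7 and 0.08 for Hopx. Sox2 was above WT in every mPPL-001 library, at 24.0 to 31.4 CPM against 15.7 to 20.7 CPM, and 2.77% of all genes were apart in this way. In mock against WT, 0 of the 8 genes and 0.44% of all genes were called. Kcnj10 had 584 ± 174 CPM in mock (SD, n = 4), and its log2 fold change was 1.08 (SE 0.28, adjusted p = 0.0797), where that of Acsbg1 was 0.71 (adjusted p = 0.119). The others stood at 0.68 for Gdf10, 0.60 for Ptprz1, 0.47 for Sox2, 0.46 for Hopx, 0.40 for Fabp7 and 0.37 for Slc1a3. Without WT replicate 3, Kcnj10 was called higher in mPPL-001 (1.24, adjusted p = 0.0305) and in mock (1.44, adjusted p = 0.0121), in fits that called 6.93% and 18.6% of all genes. Without WT replicate 2 it was lower in both, 0.53 for mPPL-001 and 0.75 for mock, and not called, and Acsbg1 stood at 0.26 for mPPL-001 and 0.41 for mock. In mock against WT, DESeq2 also called Kcnj10 (adjusted p = 0.0084) and Acsbg1 (adjusted p = 0.0497), beside 10.6% of all genes, and voom called Kcnj10 (adjusted p = 0.0145), beside 6.08%.

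The comparison of mPPL-001 with mock asks what the editing of the transplanted cells adds. None of the 8 genes was called, and neither was any other gene by edgeR, DESeq2 or voom (0%), while 484 genes had an unadjusted p under 0.05. Among the 8, none had an unadjusted p under that value. Log2 fold changes were 1.18 for Gdf10, 0.18 for Slc1a3, 0.07 for Sox2, 0.05 for Ptprz1, -0.16 for Acsbg1, -0.22 for Kcnj10, -0.28 for Fabp7 and -0.38 for Hopx. The 95% interval of Sox2 ran from -0.27 to 0.40 and that of Slc1a3 from -0.51 to 0.87. Changes inside those intervals remain compatible with these libraries. The intervals do not set how large a change must be to be called. The value for Gdf10 rested on mPPL-001 replicate 3, and was -0.51 without it. In batch B alone, Gdf10 stood at 326 and 240 CPM in mPPL-001 and at 277 and 264 CPM in mock.

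The transplanted groups were also compared with untreated YG8JR, which asks what the whole procedure changed in the model. Irradiation, antibiotic and transplanted cells came together, so their parts cannot be told apart. In mPPL-001, 0 of the 8 genes were called, beside 0.032% of all genes. Hopx had the values 9.96, 33.7, 11.8, 3.99 and 29.7 CPM in mPPL-001 and 39.4, 13.9 and 21.2 CPM in untreated YG8JR (log2 fold change -0.77, SE 0.29, adjusted p = 0.94). Fabp7 had 10.3, 11.3, 14.7, 17.3 and 10.0 CPM in mPPL-001 and 12.8, 29.9 and 19.2 CPM in untreated YG8JR (log2 fold change -0.64, SE 0.24, adjusted p = 0.94). Both genes overlapped between the groups. Without untreated YG8JR replicate 2, the library with the most Fabp7, that value was -0.34. Kcnj10 had a log2 fold change of -0.44, Acsbg1 of -0.26, Sox2 of -0.13, Ptprz1 of 0.14, Slc1a3 of 0.33 and Gdf10 of 1.37, and the value for Gdf10 was -0.53 without mPPL-001 replicate 3. In mock, 0 of the 8 genes were called, beside 0.036% of all genes, and the log2 fold changes were -0.38 for Hopx, -0.36 for Fabp7, -0.22 for Kcnj10, -0.20 for Sox2, -0.10 for Acsbg1, 0.09 for Ptprz1, 0.14 for Slc1a3 and 0.19 for Gdf10, with a median of -0.15.

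**Figure D5:**
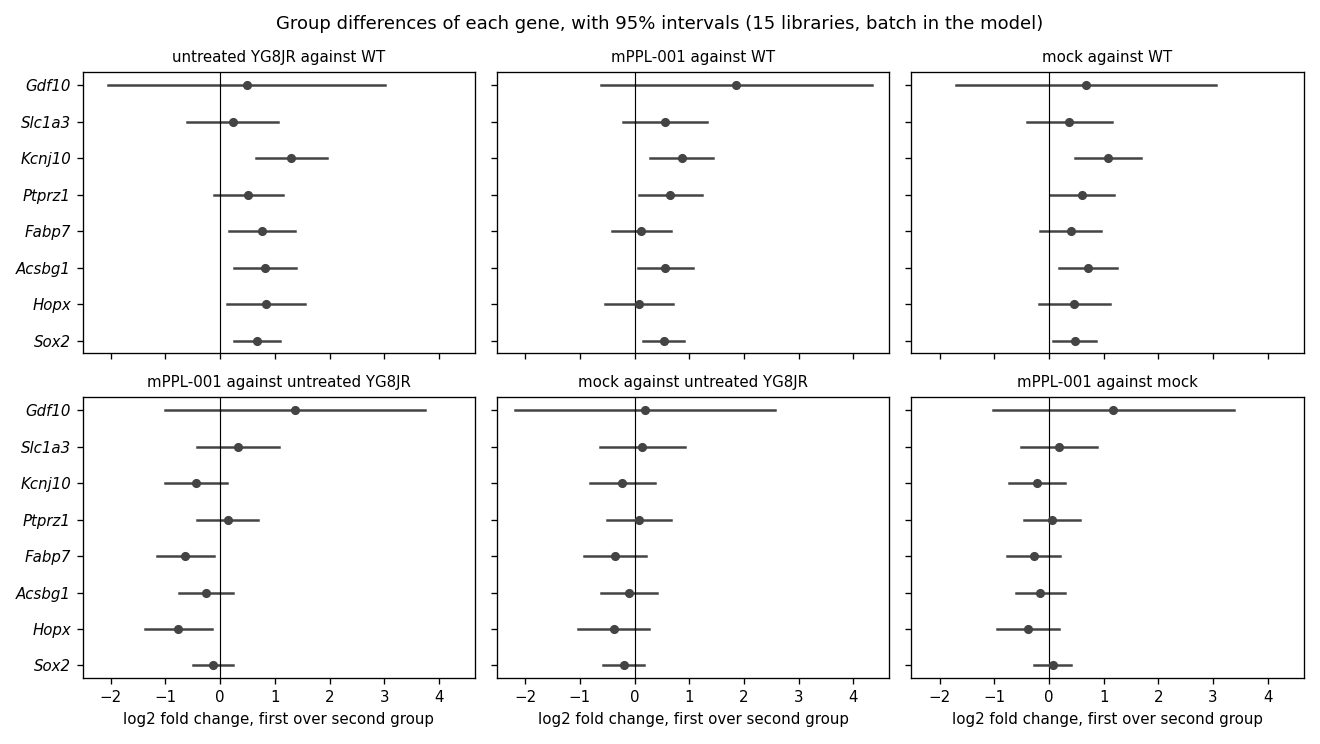
Log2 fold changes of the 8 genes with their 95% intervals in the 6 group comparisons, first over second group, from the model with batch on all 15 libraries. All 8 points lie right of 0 in the 3 comparisons with WT, and the intervals of Gdf10 are the widest in every panel.

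The 8 genes did not vary as a unit. After group and batch means were removed from log2 CPM, 26 of the 28 pairs had a positive Pearson r over the 15 libraries, with a median of 0.485 and a range from -0.099 to 0.907. The closest pairs were Gdf10 with Slc1a3 (0.907), Slc1a3 with Ptprz1 (0.865) and Kcnj10 with Acsbg1 (0.849). Hopx with Fabp7 (-0.099) and Slc1a3 with Sox2 (-0.057) were the farthest apart. These points share library depth and neuronal content, and without WT replicate 2 the pairs with a positive r were 21 and the median was 0.336. Before group and batch were removed, 18 of the pairs were positive, and Gdf10 with Slc1a3 reached 0.974.

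The genes outside the list whose pattern was closest to the mean of the 8, over the same 15 libraries, were Zfp422 (Pearson r 0.986), Psmd8 (0.98), Nptn (0.979), Nmt1 (0.977), Adh5 (0.976), Hdgf (0.976), Tmem185a (0.976), Fkbp1a (0.975), Maneal (0.975) and B4galt5 (0.974). WT replicate 2 gave 33.5% of the squared deviations of that mean, and 3 of the 10 genes (Zfp422, Adh5 and Hdgf) were still among the closest 10 without it. Taken singly, Gdf10 was closest to Tspan11 (0.979), Ppp1r17 (0.973) and Itpka (0.973). Slc1a3 was closest to Lingo3 (0.986), Rgs8 (0.981) and Pcdhgc3 (0.976). Ppp1r17, Itpka and Rgs8 are genes known from Purkinje cells. Hopx was closest to Skor1 (0.948), A2m (0.934) and Dao (0.926), the last pair being from the list of further Bergmann glia genes. Sox2 was closest to Nim1k (0.911), Etv5 (0.909) and Panx2 (0.908), and Kcnj10 to Nfe2l1 (0.985), Kcnab2 (0.984) and Hspd1 (0.979).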

How the data were processed

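The authors deposited a table of raw counts, whole numbers of reads for 55487 mouse genes in 15 libraries, with 1 column per library. Per the submitters' processing notes, STAR and the build GRCm39 were used, and the sources used here name neither the counter, nor its use of strand, nor the annotation. Symbols and exon lengths came from GENCODE M21, an annotation of the earlier build, which gave a symbol to 55141 identifiers (99.4%), and promoters from RefSeq on GRCm38.p6. Group and batch were taken from the labels. These do not say whether each sample was its own animal, so p-values reflect sample spread that may be technical. As a check for copies, 22 pairs of libraries within groups were compared by chi-square, and the smallest value was 20.6 per gene.

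The table's 1 non-mouse entry was left out of library sizes, and a few genes, the targeted one included, are not reported here. TMM-scaled CPM were computed. A robust quasi-likelihood model of edgeR 4.0.16 (R 4.3.3) with group and batch was fitted to all 15 libraries and 24989 genes (minimum count 10, minimum total 15; common dispersion 0.11). P-values were adjusted over all genes by Benjamini-Hochberg, and called means an adjusted p below 0.05. The code was tested on simulated data. Alternatives were RLE scaling, no filter or a minimum count of 50, DESeq2 1.42.0, voom with sample weights (limma 3.58.1), leaving batch out of the model, a replicate block beside batch, the region score as a covariate (prior count 0.5), the compared groups only, each batch alone, each library left out, and WT replicate 1 as the only WT library. Correlations without WT replicate 2 were added after seeing the data.

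All 8 genes are named in every comparison. From other lists, called members and up to 3 members with the smallest p may be named. Likeness was measured by Pearson r for genes with a mean of at least 1 CPM and a proper name. Markers named to describe the tissue were chosen after their values were seen. The 8 genes, the lists and the tests were chosen with earlier results of these data known.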

Additional observations from a re-analysis of the deposited data

How the results depend on the processing

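Of 1456 alternative values of single genes over 7 comparisons, 1402 kept their sign, 16 passed the threshold where the first value had not, and 8 no longer passed it, all 8 between batches (5 with the region score, and Kcnj10 with the replicate block or without 1 of 2 libraries). DESeq2 gave no adjusted p for Gdf10 between batches. The cause of the changes below was not tested. For untreated YG8JR against WT, the 43 genes called became 443 with no filter, 2213 with DESeq2, 1257 with voom, 8 with no batch term, 15 with the region score, 0 with the compared groups only, 1 in batch A, 5 in batch B, 148 with WT replicate 1 alone, and 0 (without untreated YG8JR replicate 2) to 4095 (without WT replicate 3) with a library left out. The count among the 8 genes was 1 with no filter, 3 with DESeq2, 1 with voom, and 0 to 1 with a library left out. For mock against WT, 110 became 783, 2648, 1520, 47 and 5 (no filter, DESeq2, voom, no batch term, compared groups only), 7 in each batch, and 39 to 4838 with a library left out, with 1, 2 and 1 of the 8 genes under no filter, DESeq2 and voom, and 0 to 1 with a library left out. For mPPL-001 against WT, 52 became 184, 655, 186, 32 and 12 in the same order, 11 in batch A, 13 in batch B, 30 with WT replicate 1 alone, and 26 to 1799 with a library left out, with 0 to 1 of the 8. For mPPL-001 against untreated YG8JR, 8 became 22 with DESeq2, 34 with voom, 5 with no batch term, 16 in batch A and 0 in batch B. For mock against untreated YG8JR, 9 became 15 with DESeq2 and 5 with no batch term. For mPPL-001 against mock, 0 became 1 in batch A and 5 in batch B. Between batches, the region score left 0 genes and 0 of the 8, with a median of -0.027.

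Whether replicate numbers pair the libraries was not settled. With only group means removed, 10 of 19 same-numbered pairs had a correlation over 0.1 (-0.571 to 0.714). Its sign followed batch, positive within a batch and negative across batches, so it cannot speak to pairing. With batch means removed too, the correlations ran from -0.374 to 0.349. With the replicate block, calls were 0 for untreated YG8JR against WT, 11 for mPPL-001 against WT, 13 for mock against WT and 4933 between batches, where Kcnj10 was no longer called (-0.69), and signs turned for Gdf10 (-0.63, mock against untreated YG8JR) and Sox2 (-0.001, mPPL-001 against mock).

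Values of the opposite sign followed. With the region score they were -1.03 for Gdf10, -0.30 for Ptprz1 and 0.31 for Sox2 between batches; -0.58 for Gdf10, -0.20 for Slc1a3 and -0.10 for Ptprz1 in mPPL-001 against untreated YG8JR; -0.50, -0.25 and -0.15 in mPPL-001 against mock; and -0.076 for Gdf10 in mock against untreated YG8JR. With no batch term they were -0.23 for Slc1a3 in untreated YG8JR against WT, -0.086, -0.26 and -0.07 for Gdf10, Slc1a3 and Ptprz1 in mPPL-001 against mock, and -0.16 for Hopx in mPPL-001 against WT, where voom gave -0.12. In batch A, Gdf10 and Slc1a3 were -0.15 and -0.13 in untreated YG8JR against WT and -0.17 and -0.10 in mock against WT, Fabp7 -0.10 in mock against WT, Hopx and Fabp7 -0.25 and -0.12 in mPPL-001 against WT, Gdf10 -0.017 in mock against untreated YG8JR and Sox2 -0.23 in mPPL-001 against mock. In batch B, Fabp7 and Acsbg1 were 0.25 and 0.062 in mock against untreated YG8JR, Kcnj10, Acsbg1 and Sox2 0.042, 0.054 and 0.31 in mPPL-001 against untreated YG8JR, and Slc1a3, Kcnj10 and Ptprz1 -0.20, 0.087 and -0.062 in mPPL-001 against mock. With WT replicate 1 alone, Hopx and Fabp7 were -0.055 and -0.029 in mPPL-001 against WT.

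Leaving out 1 library gave ranges across 0. In mPPL-001 against untreated YG8JR they were -0.53 to 1.80 for Gdf10, -0.11 to 0.51 for Slc1a3 and -0.02 to 0.28 for Ptprz1. In mPPL-001 against mock they were -0.51 to 1.48 for Gdf10, -0.21 to 0.35 for Slc1a3, -0.091 to 0.18 for Ptprz1 and -0.008 to 0.24 for Sox2. In mock against untreated YG8JR they were -0.12 to 0.70 for Gdf10, -0.16 to 0.002 for Acsbg1 and -0.01 to 0.21 for Ptprz1. In mPPL-001 against WT they were -0.093 to 0.26 for Hopx and -0.085 to 0.32 for Fabp7, and in untreated YG8JR against WT -0.031 to 0.79 for Gdf10. Gdf10, with a lowest count of 21, had the widest errors of the 8 genes in each comparison.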
